A study of Rattus norvegicus with 15 samples.

Results

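The chemokines and chemokine receptors of rat islets were described as 50 genes of the 28914 in the deposited count table. The members are all symbols that begin with Ccl, Cxcl, Ccr or Cxcr followed by a number, plus Cx3cl1 and Cx3cr1. They hold 33 ligands (20 CC, 12 CXC and Cx3cl1) and 17 receptors (10 CC, 6 CXC and Cx3cr1). Ccr2 and Cxcl5 are not analysed here.

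The study sequenced polyadenylated RNA of islets of Langerhans, isolated from Lewis rats 10 weeks after removal of 90% of the pancreas (partial pancreatectomy, Px, n = 10) or a sham operation (Sham, n = 5). All rats are labelled as 4 to 5 weeks old, without saying at which point, and all carry the mark Inc_YES, which the labels do not explain; no allele and no drug is named. The average blood glucose before tissue collection, given without a unit, was 88 to 96 in Sham, 104 to 211 in 7 Px rats (lower-glucose Px) and 416 to 464 in 3 Px rats (higher-glucose Px). Px islets can only come from the small remnant left by the surgery. The labels number the rats separately and say no more about them; p-values measure the spread between these libraries.

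Chemokines are small secreted proteins that guide migrating cells along a concentration gradient, and their receptors are G protein-coupled receptors on the cells that respond. The families are named for the spacing of the cysteines near the start of the mature ligand, which are adjacent in CC and separated by other residues in CXC and CX3C chemokines. Inflammatory chemokines are induced in injured tissue and draw in monocytes, neutrophils and activated lymphocytes, whereas homeostatic chemokines place lymphocytes, progenitors and vessels in resting tissue. In islet research, Ccl2 and Cxcl10 are known as products of beta cells exposed to inflammatory cytokines and of macrophages.

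Library totals were 12.2 to 18.4 M counts in Sham, 19.1 to 31.6 M in lower-glucose Px and 22.3 to 33.4 M in higher-glucose Px. Levels below are counts per M on library sizes scaled by TMM (CPM), and changes are log2 fold changes ± standard error. The summed level of 10 islet endocrine markers was 100370 to 204963 CPM in Sham, 54169 to 89031 in lower-glucose Px and 60946 to 76527 in higher-glucose Px, so the labelled tissue was present in every library. The 15 measured macrophage and myeloid markers summed to 34.7 to 77.4 CPM in Sham, 806 to 4091 in lower-glucose Px and 859 to 1148 in higher-glucose Px. In bulk RNA, more or fewer cells of a type and more or less RNA per cell cannot be told apart. The 17 acinar markers, genes of the exocrine pancreas, summed to 5332 to 93897, 142993 to 631176 and 323691 to 666885 CPM in the same order. Lower-glucose Px replicate 8, which held the 4091 CPM of macrophage markers, stands apart in many of the results below, and the counts that lead the comparisons are also given without it.

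Almost every chemokine gene that could be tested was higher in Px islets. Of the 50 genes, 37 passed the filter on low counts, and 34 of these 37 (91.9%) were higher in Px than in Sham and 0 were lower, against 34.5% of the 15199 tested genes called higher and 30.2% called lower (edgeR quasi-likelihood test, Benjamini-Hochberg adjusted p under 0.05). The ligands gave 24 higher of 26 tested and the receptors 10 of 11. DESeq2 and limma voom also called 0 of the genes lower, against 31.7% and 30.4% of all genes. None was lower at an unadjusted p under 0.05, against 31.8% of all genes. The median log2 fold change was 4.23 for the 37 genes and 0.02 for all tested genes. Without lower-glucose Px replicate 8 the median of the chemokine genes was 3.85, with 30 of 34 tested genes higher, against 34% of all genes.

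Many of these genes were nearly silent in Sham and passed the filter only through their Px counts, so that they could hardly appear as lower, and the counts above describe the genes and are not support. 7 tested genes had 3 or fewer counts over all 5 Sham libraries together. A Sham mean of at least 10 counts, a level chosen after the counts were seen, was reached by 14 of the tested genes, and 12 of the 14 were higher in Px and 0 lower. Among all genes at that Sham level 29.6% were called higher. The 2 exceptions were Ccl19 and Cxcr5.

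Every Px library lay above the highest Sham library for 33 of the 37 genes, and none had every Px library below the lowest Sham library. The same non-overlap was seen upward in 20.8% and downward in 16.4% of all tested genes. It held for 30 of 34 genes, against 21.2% of all genes, without lower-glucose Px replicate 8, a setting added after the data were seen. The 4 genes with overlapping groups were Ccl19, Ccl27, Cxcl10 and Cxcr5. Scaling by library totals alone, under which the median of all genes is -0.62 in place of 0.02, left 31 genes higher and 0 lower. Under it 18 of the 37 genes had every Px library above Sham, against 8.15% of all genes. That scaling called 2667 genes higher and 7951 lower over the whole table, where the TMM-scaled fit called 5242 and 4596, and scaling by 8 endocrine granule genes called 9175 and 715, with 34 of the chemokine genes higher.

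**Figure D1:**
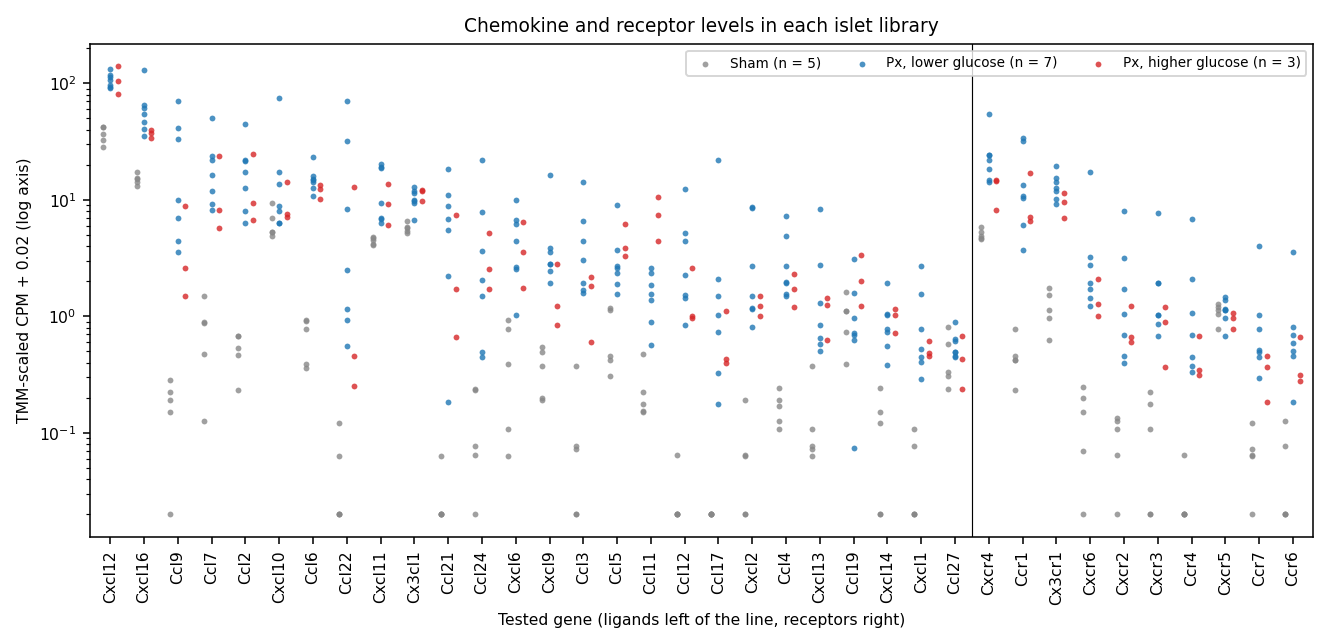
Levels of 36 tested genes in each library, as TMM-scaled CPM plus 0.02 on a log axis, with ligands left of the line and receptors right of it. Grey points are the 5 Sham libraries, blue the 7 lower-glucose Px and red the 3 higher-glucose Px. Blue and red points lie above the grey ones for all but Ccl19, Ccl27, Cxcl10 and Cxcr5.

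The monocyte-attracting CC ligands were higher in Px. Ccl2 (chromosome 10, 69412017 to 69413870; positions are those of the count table, of unnamed build) is the main ligand of Ccr2 and draws monocytes out of the blood. It stood at 0.211, 0.657, 0.656, 0.444 and 0.516 CPM in the 5 Sham libraries. In lower-glucose Px it ran from 6.36 over a median of 17.4 to 44.4 CPM, and the higher-glucose Px libraries held 6.76, 9.44 and 24.9 CPM. The groups were far apart, since the lowest Px library exceeded every Sham library, and the change was 5.10 ± 0.57 (edgeR quasi-likelihood, Benjamini-Hochberg adjusted p = 1.17e-06).

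Ccl7 (chromosome 10, 69423086 to 69424979), a neighbour of Ccl2 with overlapping receptors, went from 0.106 to 1.47 CPM in Sham (median 0.859) to 5.70 to 49.9 CPM in Px (median 14.1). The change was 4.53 ± 0.62 (edgeR quasi-likelihood, adjusted p = 8.64e-06), and Px and Sham did not overlap. Ccl12, the third ligand of this group, had 1 count in all Sham libraries together and 694 in Px, a ratio of scaled counts of 304 with a 95% interval of 54.4 to 12035 that covers counting error only. Without Sham replicate 26, which held that count, Ccl12 was at least 78.9-fold higher against a floor of 3 counts over the Sham group. All 10 Px libraries held Ccl12, at 0.819 to 12.5 CPM. All of these genes lie side by side on chromosome 10 with Ccl11.

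The CC ligands that attract macrophages, T cells and other leukocytes (Ccl3, Ccl4, Ccl5, Ccl6 and Ccl9) rose in 5 of 5. Ccl6 (chromosome 10, 70797124 to 70802782), a rodent chemokine of myeloid cells, gave the smallest p of the 37 tested genes. Its Sham libraries held 0.370, 0.758, 0.918, 0.889 and 0.344 CPM, and the Px libraries held 10.1 to 23.1 CPM with a median of 13.9. Ccl6 was thus high in all 10 Px rats alike, with a change of 4.40 ± 0.27 (edgeR quasi-likelihood, Benjamini-Hochberg adjusted p = 5.38e-09).

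Ccl9, another rodent myeloid chemokine and the direct neighbour of Ccl6, was less even. It ran from 0 to 0.267 CPM in Sham (median 0.172) and from 1.46 to 70.5 CPM in Px (median 7.93), with a change of 6.81 ± 1.26 (edgeR quasi-likelihood, adjusted p = 1.61e-04). limma voom did not call Ccl9 (adjusted p = 0.0523). So the direction was the same in every Px library, but the size differed widely between rats.

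Ccl4, made by activated macrophages and T cells, rose from a Sham median of 0.152 CPM (0.0874 to 0.222) to a Px median of 1.93 CPM (1.17 to 7.24), by 4.14 ± 0.55 (edgeR quasi-likelihood, adjusted p = 6.16e-06). Ccl3, its close relative, ran from 0 to 0.354 CPM in Sham and from 0.583 to 14.1 CPM in Px. Its change of 5.32 ± 0.95 (edgeR quasi-likelihood, adjusted p = 1.23e-04) became 6.97 without Sham replicate 24, the Sham library with the most Ccl3. The exons of Ccl3 overlap AC114233.1 on the opposite strand, and since the strand setting of the counting is not given, reads of the pair cannot be told apart.

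Ccl5 (chromosome 10, 70739800 to 70744315), which T cells, macrophages and platelets release, held 1.16, 0.404, 0.437, 1.11 and 0.286 CPM in Sham. Its Px libraries ran from 1.53 to 9.04 CPM with a median of 3. The gap between the groups was small, as the highest Sham library reached 1.16 CPM, and the change was 2.43 ± 0.47 (edgeR quasi-likelihood, adjusted p = 2.31e-04).

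Ligands of Ccr3 and Ccr4, which draw eosinophils, type 2 helper T cells and regulatory T cells, were higher in 4 of 4. Ccl17 (chromosome 19, 10619220 to 10620671) had 0 counts in every Sham library and 793 in the Px libraries. Against a floor of 3 counts over the Sham group it was at least 116-fold higher in Px. Lower-glucose Px replicate 8 held 637 of these counts, and without it the bound was 26.1-fold. Its Px libraries ran from 0.157 to 22 CPM with a median of 0.864, so the highest library held 25.4 times the Px median.

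Ccl22, the partner of Ccl17 on chromosome 19 (10674189 to 10681145) and likewise a product of dendritic cells and macrophages, had 3 Sham counts and 3232 Px counts. The ratio of scaled counts was 472 (95% interval 161 to 2292, counting error only). It was 199 without lower-glucose Px replicate 8, which held 2042 of the Px counts, and 1141 without Sham replicate 24, which held 2 of the 3 Sham counts. Levels in Px ran from 0.233 to 70.4 CPM with a median of 1.82, the widest range of all 37 genes, and limma voom did not call Ccl22 (adjusted p = 0.0615). Without lower-glucose Px replicate 8 the fitted log2 fold changes fell to 7.18 for Ccl17 and 7.53 for Ccl22, both still called.

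Ccl24, the eosinophil chemokine eotaxin-2, was at 0 to 0.219 CPM in Sham and 0.424 to 21.9 CPM in Px (median 2.29), a change of 5.37 ± 1.13 (edgeR quasi-likelihood, adjusted p = 5.33e-04). It was 4.63 without lower-glucose Px replicate 11, the library with 21.9 CPM. Ccl11, eotaxin-1, is the gene that separated the Px groups and is described with them.

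Homeostatic ligands of both families gave 4 higher and 2 not called of 6 tested, and both that were not called are CC ligands. Ccl21 (chromosome 5, 58197680 to 58198782), which lymphatic vessels make and which guides Ccr7-bearing dendritic and T cells, had 1 count in Sham and 1678 in Px. The ratio of scaled counts was 736 with a 95% counting interval whose lower end was 132. Without Sham replicate 25, which held that count, Ccl21 was at least 190-fold higher against the floor of 3 counts. Px levels ran from 0.164 CPM in lower-glucose replicate 11 to 18.5 CPM in lower-glucose replicate 2, and 9 of the 10 Px libraries held at least 0.641 CPM.

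Ccl19, the other ligand of Ccr7, did not pass the test. Sham libraries held 0.370, 0.707, 1.09, 1.60 and 1.09 CPM, and Px libraries 0.0547 to 3.35 CPM with a median of 1.09. The groups overlapped fully, with a difference of 0.54 ± 0.56 (edgeR quasi-likelihood, adjusted p = 0.412), and the sign turned to -0.03 with library totals.

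Ccl27, an epithelial chemokine known from skin, lies beside Ccl19 and also did not pass the test. Its Sham range was 0.219 to 0.793 CPM and its Px range 0.216 to 0.877 CPM, a difference of 0.27 ± 0.33 (edgeR quasi-likelihood, adjusted p = 0.497) that became -0.43 with library totals. Its exons overlap Il11ra1 on the opposite strand, and these reads cannot be told apart either.

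Among CXC ligands, all 10 that were tested were called higher. Cxcl12 (chromosome 4, 149261044 to 149273891), the ligand of Cxcr4 and a retention signal for progenitors and lymphocytes, was already abundant in Sham, at 28.6, 32.3, 36.6, 42.3 and 41.9 CPM. It reached 91.7 to 133 CPM in lower-glucose Px (median 107) and 81.6, 104 and 140 CPM in higher-glucose Px. The Px libraries were nearly level with each other and all clear of Sham, with a change of 1.57 ± 0.14 (edgeR quasi-likelihood, adjusted p = 1.03e-07).

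Cxcl16 (chromosome 10, 57060007 to 57064600), a membrane-bound scavenger receptor for oxidised lipoprotein whose shed form attracts Cxcr6-bearing T cells, went from 13.2 to 17.2 CPM in Sham (median 15.2) to 34.1 to 129 CPM in Px (median 43.4). The change was 1.85 ± 0.29 (edgeR quasi-likelihood, adjusted p = 3.36e-05). Per kilobase of exon its mean level ranked first of the family in both groups, at 8.83 ± 0.89 CPM per kilobase in Sham (SD, n = 5) and 31.9 ± 16.7 in Px (SD, n = 10). The Px mean was 27 ± 6.78 without lower-glucose Px replicate 8 (SD, n = 9). Its exons overlap Zmynd15 on the opposite strand.

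In Sham the next levels per kilobase were Cxcl12 at 6.70 ± 1.10 and Cxcl10 at 5.59 ± 1.62 (SD, n = 5), which lie within each other's spread. In Px the next were Ccl7 at 21.0 ± 15.5, Ccl2 at 20.7 ± 14 and Cxcl12 at 19.9 ± 3.43 CPM per kilobase (SD, n = 10). The genes were measured in the same libraries, so these spreads between libraries do not test the order of the genes. Ccl7 and Ccl2 were the tenth and the twelfth gene in Sham, at 0.89 and 0.60 CPM per kilobase. Both CC ligands thus stood higher in the Px order than in the Sham order.

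Neutrophil-attracting CXC ligands bind Cxcr2, and the interferon-induced ones bind Cxcr3. Members of both groups are textbook targets of NF-kappaB, the transcription factor of inflammatory cytokine responses, so the stretches of their promoters that hold its motif are printed here. RefSeq promoters (GRCr8, 250 bases before to 50 after each start) were at hand for 37 of the 50 genes. The motif searched was GGANTTTCC on both strands, together with GAAANNGAA (interferon-response type) and TGANTCA (AP-1 type). Each stretch reads 5′ to 3′ along the gene, with any match in capitals; the matches did not overlap.

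The first pair lies from 120 to 41 bases before the start of neutrophil-attracting genes on the minus strand, Cxcl1 at chr14:17479362-17479441 and Cxcl6 at chr14:17596458-17596537 (RefSeq lists Cxcl5 as a synonym of the latter).
Cxcl1: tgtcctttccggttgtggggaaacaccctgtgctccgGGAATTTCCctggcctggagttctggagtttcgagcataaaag
Cxcl6: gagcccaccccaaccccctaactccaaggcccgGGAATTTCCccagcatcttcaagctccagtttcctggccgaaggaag

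The second pair comes from the interferon-induced genes on the plus strand, Cxcl11 from 120 to 41 bases before its start (chr14:15973608-15973687) and Cxcl10 from 250 to 81 bases before its start (chr14:15988816-15988985).
Cxcl11: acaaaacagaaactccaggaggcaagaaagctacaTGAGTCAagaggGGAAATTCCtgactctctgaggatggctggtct
Cxcl10: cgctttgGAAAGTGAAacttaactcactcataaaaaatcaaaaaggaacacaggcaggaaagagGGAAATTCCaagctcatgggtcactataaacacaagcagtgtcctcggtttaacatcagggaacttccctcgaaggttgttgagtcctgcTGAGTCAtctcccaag

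Of the neutrophil-type genes, Cxcl1 and Cxcl6 carried GGAATTTCC at 83 to 75 and 87 to 79 bases before the start. Of the interferon-induced genes, Cxcl11 and Cxcl10 carried its reverse complement at 73 to 65 and 186 to 178. Cxcl2, Cxcl3 and Cxcl9 of the same groups gave no match to this motif, and whether their promoters were among the 37 is not given here. With Ccr3, 5 of the 37 promoters held this motif (13.5%), against 1.28% of 33469 RefSeq promoters. GAAANNGAA stood in 2 of the 37 (5.41%, Ccl19 and Cxcl10) against 9.71% of all, and TGANTCA in 6 (16.2%) against 7.33%. Of the 37 promoters searched, that of Cxcl10 alone held all 3 motifs. A match is a run of letters, not a measured binding site.

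Cxcl1 (chromosome 14 of the count table, 18743685 to 18745457), which recruits neutrophils, had 3 Sham counts and 196 Px counts, a ratio of 28.6 (95% interval 9.66 to 140, counting error only). Without Sham replicate 25, which held 2 of the 3 Sham counts, the ratio was 66.6. Its Px levels were low, at 0.270 to 2.69 CPM with a median of 0.485. Cxcl2, its close relative, had 0 to 0.172 CPM in Sham and 0.788 to 8.69 CPM in Px (median 1.34), a change of 5.68 ± 1 (edgeR quasi-likelihood, adjusted p = 1.02e-04) that became 6.59 without Sham replicate 27.

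Cxcl6 had 0.0437 to 0.917 CPM in Sham and 1 to 9.90 CPM in Px (median 3.94), up by 3.41 ± 0.64 (edgeR quasi-likelihood, adjusted p = 1.89e-04). Per kilobase of exon, Cxcl6 stood at 2.76 ± 1.70 and Cxcl2 at 2.62 ± 2.88 CPM in Px (SD, n = 10), and their order was not tested. Cxcl3, with 0 Sham and 68 Px counts, did not pass the filter. Cxcl1, Cxcl2 and Cxcl3 are close relatives on chromosome 14, and how reads shared between them were counted is not given. All 3 tested members of the group were higher and no Px library reached down to Sham. A joint rise cannot part reads shared between relatives. Cxcl1 and Cxcl2, with 3 and 5 Sham counts in all, could hardly appear as lower.

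Of the interferon-induced ligands, which attract activated T and natural killer cells, Cxcl9 rose by 3.47 ± 0.70 (edgeR quasi-likelihood, adjusted p = 3.63e-04), from 0.172 to 0.525 CPM in Sham to 0.816 to 16.2 CPM in Px (median 2.79). Without lower-glucose Px replicate 8 this was 2.83. Cxcl11 went from 4.07 to 4.80 CPM to 6.06 to 20.4 CPM (median 9.27), by 1.39 ± 0.32 (edgeR quasi-likelihood, adjusted p = 0.00114), and was not called with library totals (0.84, adjusted p = 0.076).

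Cxcl10 (chromosome 14, 17210733 to 17212930) gave the weakest call. Sham libraries already held 4.86, 5.31, 7, 9.29 and 5.27 CPM. Px libraries held 6.28 to 75.2 CPM with a median of 8.41, and several of them lay below the highest Sham library. The change of 1.36 ± 0.58 (edgeR quasi-likelihood, adjusted p = 0.0471) was 0.64 without lower-glucose Px replicate 11, and the call was lost without replicate 8 (edgeR adjusted p = 0.0573) and in other settings given with the processing.

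Cxcl14, an epithelial and stromal chemokine, rose from 0 to 0.222 CPM in Sham to 0.364 to 1.90 CPM in Px (median 0.878), by 3.18 ± 0.55 (edgeR quasi-likelihood, adjusted p = 8.86e-05). It was 3.77 without Sham replicate 26. Cxcl13, which organises B cell follicles, went from 0.0437 to 0.354 CPM in Sham to 0.485 to 8.28 CPM in Px (median 1.02), by 3.87 ± 0.89 (edgeR quasi-likelihood, adjusted p = 0.00114). Cxcl13 gave 3.11 without lower-glucose Px replicate 8 and 4.77 without Sham replicate 24.

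Ligand and receptor of the CX3C pair were both higher in Px. Cx3cl1 (fractalkine; chromosome 19, 10644244 to 10653800), a membrane-anchored ligand of endothelial and epithelial cells, stood at 5.39, 5.66, 5.16, 6.58 and 5.84 CPM in Sham. Lower-glucose Px ran from 6.68 to 12.9 CPM (median 9.92), and higher-glucose Px held 12.1, 9.83 and 11.8 CPM. The groups were separate but close, with a change of 0.88 ± 0.14 (edgeR quasi-likelihood, adjusted p = 3.20e-05) that was not called with library totals (0.27, adjusted p = 0.372).

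Its only receptor, Cx3cr1 (chromosome 8, 128740756 to 128754514), which marks monocytes and tissue macrophages, held 0.951, 1.11, 0.612, 1.73 and 1.49 CPM in Sham. Lower-glucose Px ran from 9.13 to 19.6 CPM (median 12.7), and higher-glucose Px held 6.99, 11.4 and 9.57 CPM. All Px libraries were several times above all Sham libraries, and the change was 3.36 ± 0.28 (edgeR quasi-likelihood, adjusted p = 6.31e-08).

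**Figure D2:**
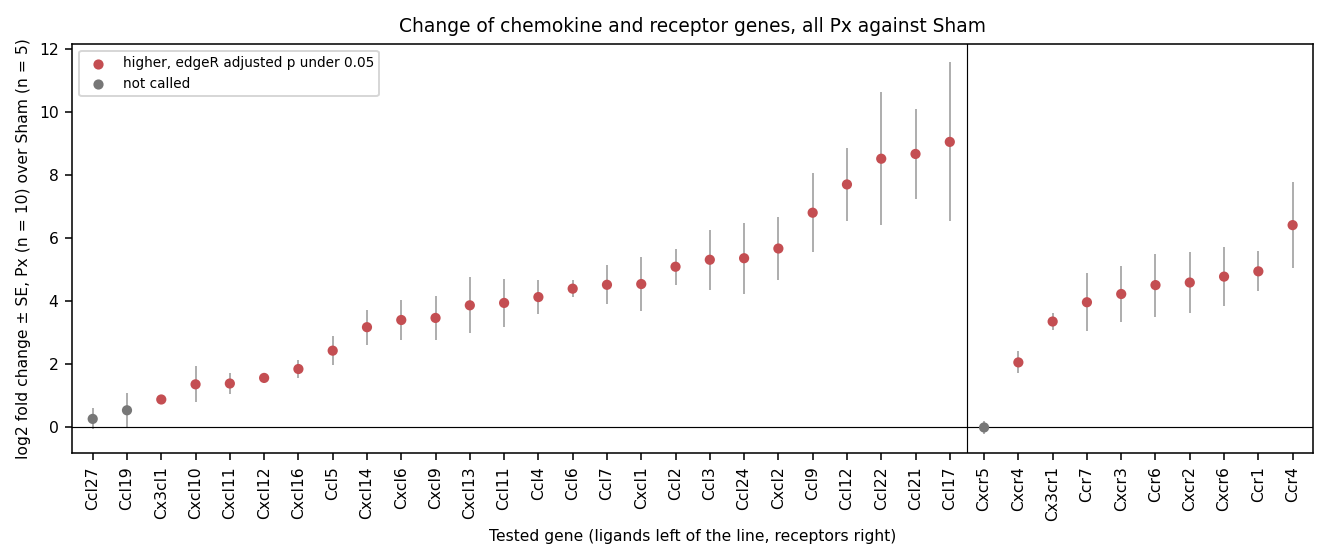
Log2 fold change of all Px (n = 10) over Sham (n = 5) for 36 tested genes, with ligands left of the line; bars are standard errors. Red points passed edgeR's adjusted p under 0.05 and grey points did not; fitted values of genes with 0 to 3 Sham counts, such as Ccl17 and Ccl21, depend on the fit's prior count. The 33 red points all lie above 0.

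Receptors of the CC family were called in 5 of 5 tested. Ccr1 (chromosome 8, 132996649 to 133002201), a receptor of monocytes and neutrophils, went from 0.211 to 0.755 CPM in Sham (median 0.404) to 3.72 to 33.6 CPM in Px (median 10.5), by 4.95 ± 0.64 (edgeR quasi-likelihood, adjusted p = 4.48e-06). Of the lymphocyte and dendritic cell receptors, Ccr7, the receptor of Ccl19 and Ccl21, ran from 0 to 0.101 CPM in Sham and 0.162 to 3.97 CPM in Px (median 0.456). Its change was 3.97 ± 0.93 (edgeR quasi-likelihood, adjusted p = 0.00127). Ccr4 and Ccr6 had 1 and 3 Sham counts against 326 and 201 in Px, with ratios of 143 (lower end of the 95% counting interval 25.5) and 29.4 (9.91 to 144). Without lower-glucose Px replicate 8, which held 197 and 103 of these Px counts, the ratios were 64.6 and 16.4. Leaving out the Sham library with most of the few counts gave at least 37.1-fold for Ccr4 (without replicate 26, against the floor of 3 counts) and a ratio of 71.7 for Ccr6 (without replicate 23). These receptors were close to the filter on low counts, since Ccr4, Ccr6 and Ccr7 all left the test without any 1 of lower-glucose Px replicates 2, 8, 10 and 16, and 1 or 2 of them without each of the other Px libraries.

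CXC receptors gave 4 higher of 5 tested. Cxcr4 (chromosome 13, 45314933 to 45318878), the receptor of Cxcl12 on leukocytes, progenitors and vessels, held 4.65, 4.85, 4.55, 5.29 and 5.84 CPM in Sham. Lower-glucose Px ran from 14.3 to 54.1 CPM (median 22.2), and higher-glucose Px held 8.16, 14.4 and 14.8 CPM. The lowest Px library was still above the highest Sham library, and the change was 2.06 ± 0.35 (edgeR quasi-likelihood, adjusted p = 7.65e-05).

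Cxcr2 (chromosome 9, 81427730 to 81434102), the neutrophil receptor of Cxcl1 and Cxcl2, was at 0 to 0.115 CPM in Sham and 0.378 to 8.04 CPM in Px (median 0.853), up by 4.6 ± 0.98 (edgeR quasi-likelihood, adjusted p = 6.03e-04). Cxcr6, the receptor of Cxcl16 on T cells, rose from 0 to 0.229 to 0.990 to 17.2 CPM (median 1.80), by 4.79 ± 0.93 (edgeR quasi-likelihood, adjusted p = 2.69e-04). Cxcr3, the receptor of the interferon-induced ligands, rose from 0 to 0.202 to 0.350 to 7.73 CPM (median 1.01), by 4.23 ± 0.89 (edgeR quasi-likelihood, adjusted p = 5.12e-04). Without lower-glucose Px replicate 8 these values were 3.87 for Cxcr2, 3.90 for Cxcr6 and 3.54 for Cxcr3.

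Cxcr5 (chromosome 8, 48836957 to 48850671), the receptor of Cxcl13 on follicular B and T cells, did not pass the test. It held 1.11, 0.758, 1.18, 1.02 and 1.26 CPM in Sham and 0.656 to 1.45 CPM in Px (median 1.08). The groups overlapped fully, with a difference of -0.01 ± 0.21 (edgeR quasi-likelihood, adjusted p = 0.983), whose sign changed with the setting.

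For all Px against Sham, 13 genes did not pass the filter. The ligands were Ccl1, Ccl20, Ccl25, Ccl26, Ccl28, Cxcl3 and Cxcl17, and the receptors Ccr3, Ccr8, Ccr9, Ccr10, Ccr1l1 and Cxcr1. In the fit of 3 groups, Ccl20 and Ccr3 passed and were called higher in both Px groups. The edgeR adjusted p in lower- and higher-glucose Px was 2.10e-04 and 0.00423 for Ccl20, and 0.00311 and 0.0104 for Ccr3. Both left that fit without lower-glucose Px replicate 8. Ccl26 had 0 counts in all 15 libraries, and Ccl25 and Cxcr1 had 2 and 1 in all. Ccr3, the eosinophil receptor, had 0 Sham and 178 Px counts, which is at least 26-fold higher against a floor of 3 counts. Ccr8 had 0 and 124 counts (at least 18.1-fold higher). These bounds were 16.5-fold for Ccr3 and 8.85-fold for Ccr8 without lower-glucose Px replicate 8. Ccl20, the ligand of Ccr6, had 1 and 98 counts (ratio 43.0, lower end of the 95% counting interval 7.53), and was at least 11.5-fold higher without Sham replicate 24, which held the 1 count. How reads shared with the related Ccr1 and Cxcr2 were counted for Ccr1l1 and Cxcr1 is not given. Cxcl17 ranged over overlapping levels, with 0 to 0.211 CPM in Sham and 0.0477 to 0.278 CPM in Px.

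The Px libraries differed much among themselves. Lower-glucose Px replicate 8 (glucose 155) was the highest of the 10 for 27 of the 37 tested genes (73%), while it was highest for 20% of all tested genes. It reached at least 2 times the median of the other 9 Px libraries for 29 of the 37. The excess was largest for Ccl22 (70.4 CPM, 61.4 times that median) and Ccl17 (22 CPM, 30.7 times), followed by Ccr4 (6.80 CPM, 16 times).

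Marker sums moved with this library. Its macrophage and myeloid markers summed to 4091 CPM, against a median of 969 and a highest value of 1989 in the other Px libraries, and its dendritic cell markers to 227 CPM (median 48.6 in the others). T and NK lymphocyte markers summed to 229 CPM (69.4) and neutrophil markers to 40.6 CPM (10.1). Single genes carried much of these sums: Lyz2 made up 70.2% of the macrophage sum, Itgax 86.8% of the dendritic cell sum, Cd4, which rat macrophages also express, 52.8% of the T and NK sum, and Ncf1 63.4% of the neutrophil sum. Without that gene each sum was still highest in replicate 8, at 1219, 29.9, 108 and 14.9 CPM against at most 801, 14.8, 27.5 and 10.0 CPM in the other Px libraries. Its acinar markers, at 148042 CPM, were below the median of the others, 323691 CPM. The part of these cells in the high chemokine levels of this library was not tested.

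Lower-glucose Px replicate 11 (glucose 211) had another pattern. It was the highest library for 4 genes, with Cxcl10 at 75.2, Ccl24 at 21.9, Cxcl11 at 20.4 and Ccl12 at 12.5 CPM, and the lowest for 6, among them Ccl21 at 0.164 and Ccl19 at 0.0547 CPM. Higher-glucose Px replicate 13 was the lowest library for 11 genes. The most even genes over the 10 Px libraries were Cxcl12, whose highest library was 1.72 times the lowest, Cx3cl1 (1.93 times), Cxcr5 (2.21 times) and Ccl6 (2.28 times). The most uneven were Ccl22 (302 times), Ccl17 (140 times) and Ccl21 (113 times).

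**Figure D3:**
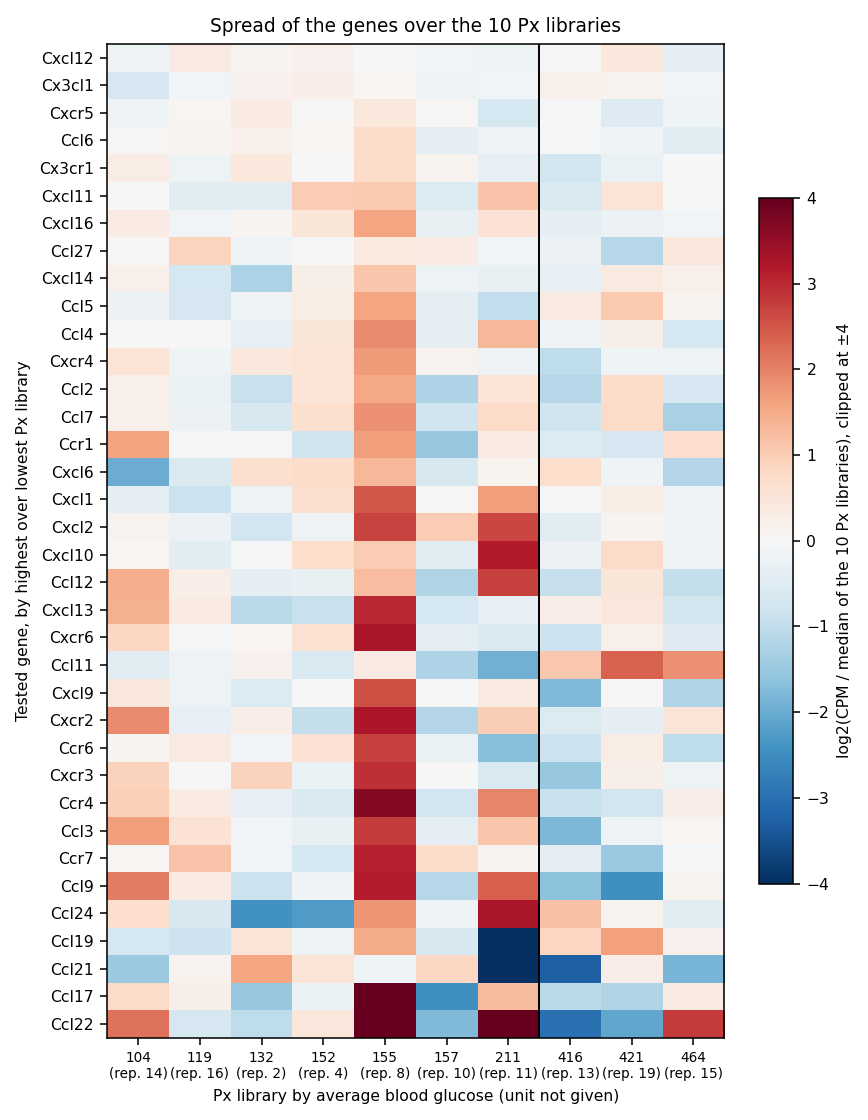
Level of the tested genes in each Px library relative to its median over the 10 Px libraries, as log2 ratio clipped at ±4; columns are ordered by average blood glucose and rows by the ratio of the highest to the lowest Px library. The line parts the 7 lower-glucose from the 3 higher-glucose libraries. The column of replicate 8 is red in most rows, and Ccl11 is red in the 3 higher-glucose columns.

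The Px groups were each compared with the same 5 Sham libraries. In lower-glucose Px 36 of 39 tested genes were higher and 0 lower, against 33.6% and 30% of all genes, and in higher-glucose Px 33 of 39 were higher and 0 lower, against 32.2% and 25.5% (edgeR quasi-likelihood, adjusted p under 0.05). The counts of higher genes were 34 of 37 and 33 of 37 without lower-glucose Px replicate 8, against 32.4% and 33.2% of all genes. Ccl19, Ccl27 and Cxcr5 were not called in either group. Ccl17, Ccr7 and Cxcl10 were called in lower- and not in higher-glucose Px, and none of the 3 passed the test of the difference between those groups. In higher-glucose Px, Ccl17 was called with DESeq2 (adjusted p = 0.0014) and without lower-glucose Px replicate 8 (edgeR adjusted p = 0.00179). Ccr7 was called there with DESeq2 (adjusted p = 0.023), with endocrine granule scaling (edgeR adjusted p = 0.0399) and without lower-glucose replicate 4 or 8 or higher-glucose replicate 19 (edgeR adjusted p = 0.0425, 0.00294 and 0.0486).

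That test, higher- against lower-glucose Px, called 1 of 39 genes higher and 0 lower, against 3.29% and 1.59% of all genes. Without lower-glucose Px replicate 8 it called 1 of 37 higher and 0 lower, against 3% and 1.58%. At an unadjusted p under 0.05, 1 gene was higher (2.56%) and 6 were lower (15.4%), against 11.3% and 11.4% of all genes. DESeq2 called 1 lower, Cxcr4, where it called 4.33% of all genes lower, and limma voom called 0, against 1.55% of all genes. Of the 39 differences 33 (84.6%) were below 0, against 52.5% of all genes, with a median of -0.86 that became -0.45 without lower-glucose Px replicate 8. The 6 differences above 0 were those of Ccl11, Ccl19, Ccl5, Cx3cl1, Cxcl14 and Cxcl12.

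Ccl11 (chromosome 10, 69434941 to 69439575), eotaxin-1, attracts eosinophils through Ccr3 and is made by fibroblasts and epithelial cells. Sham libraries held 0.159, 0.202, 0.131, 0.133 and 0.458 CPM. Lower-glucose Px held 0.547 to 2.59 CPM with a median of 1.53. The 3 higher-glucose Px libraries held 4.37, 7.40 and 10.7 CPM, above all others, so the groups did not overlap. Within lower-glucose Px, Ccl11 had a slope on log2 glucose of -1.32 ± 0.87 (edgeR quasi-likelihood, adjusted p = 0.695). The lowest value there, 0.547 CPM, was that of replicate 11 (glucose 211).

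The difference of Ccl11 between the Px groups was 2.23 ± 0.38 (edgeR quasi-likelihood, Benjamini-Hochberg adjusted p = 0.00306). Against Sham it was 2.88 ± 0.46 higher in lower-glucose Px (edgeR adjusted p = 4.71e-05) and 5.11 ± 0.50 higher in higher-glucose Px (edgeR adjusted p = 8.37e-07). Leaving out each library in turn gave 1.89 to 2.51 for the difference, and library totals 1.79 (edgeR adjusted p = 0.0629), which ends the call. Fibroblast, stellate cell and matrix markers summed to 169 to 487 CPM in Sham, 3429 to 7707 in lower-glucose and 1518 to 2625 in higher-glucose Px. The part of these cells in the Ccl11 levels was not tested.

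Within the 7 lower-glucose Px libraries, no gene of the table passed the test for a slope on log2 glucose (0% rising, 0% falling, edgeR quasi-likelihood, adjusted p under 0.05). At an unadjusted p under 0.05, 4 of 42 chemokine genes rose (9.52%) and 0 fell. Of all 15695 tested genes, 918 rose (5.85%) and 511 fell (3.26%). Cxcl10 had the smallest p of the 4, with a slope of 3.19 ± 0.67 per doubling of glucose (edgeR adjusted p = 0.396) that became 1.16 without replicate 11. DESeq2 called 72 genes rising (0.459%) and 29 falling (0.185%). The 1 chemokine gene among them was Cxcl10 (3.11, DESeq2 adjusted p = 0.0207), and limma voom called 0.

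**Figure D4:**
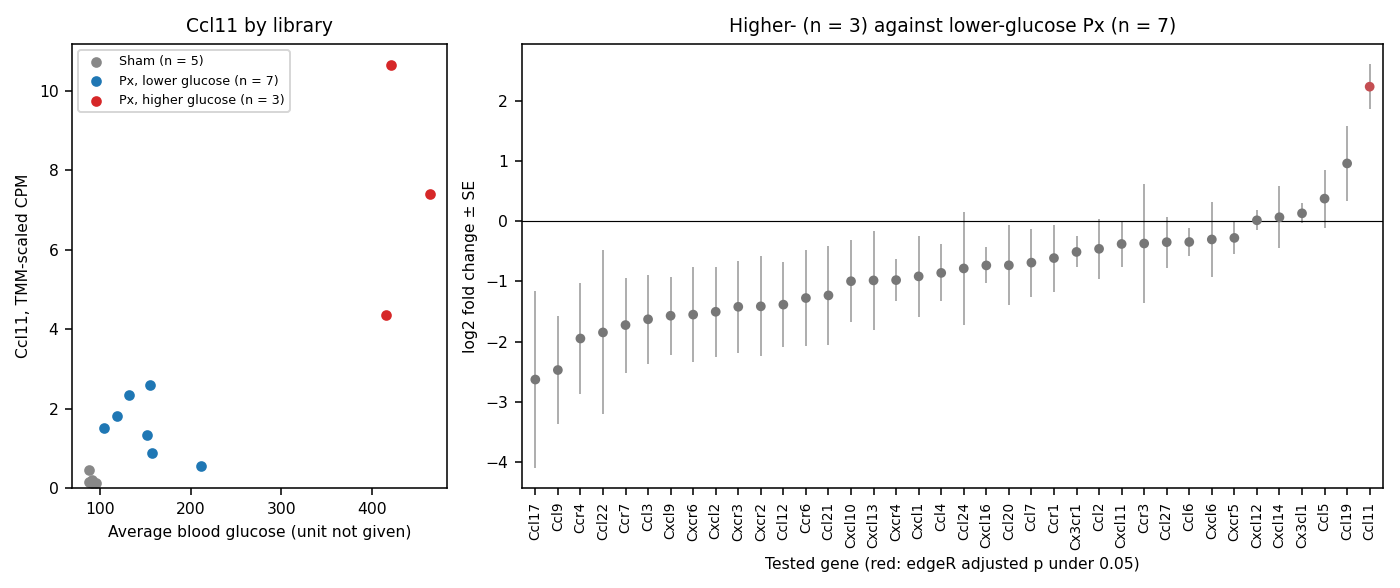
Left, Ccl11 in TMM-scaled CPM against average blood glucose (unit not given) for each library of Sham (grey), lower-glucose Px (blue) and higher-glucose Px (red). Right, log2 fold change of higher-glucose (n = 3) over lower-glucose Px (n = 7) with standard errors for 38 tested genes; Ccl11, at 2.23, is the only red point, the others having an edgeR adjusted p of 0.05 or more.

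Other genes of the chemokine system, from a list of 18 that are no members, gave 11 higher and 0 lower of 12 tested (Xcr1 among them is also on the dendritic cell list). Cmklr1, the chemerin receptor of macrophages and dendritic cells, rose by 2.76 ± 0.24 (edgeR adjusted p = 8.82e-08), and Ackr3, which binds and removes Cxcl12, by 2.23 ± 0.21 (edgeR adjusted p = 2.09e-07). Pf4, the CXC chemokine of platelets, rose by 4.17 ± 0.41 (edgeR adjusted p = 3.19e-07). The exception was Adam10, a protease that sheds Cx3cl1 and Cxcl16, at 0.18 ± 0.09 (edgeR adjusted p = 0.0816).

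Of 14 tested genes that carry chemokine receptor signals, 9 were higher and 1 lower. Arrb1, an arrestin that ends receptor signalling, rose by 2.61 ± 0.20 (edgeR adjusted p = 2.98e-08), and Vav1, an exchange factor of blood cells, by 4.29 ± 0.43 (edgeR adjusted p = 3.42e-07). Grk3, a kinase that marks activated receptors for arrestins, fell from 44.6 ± 4.62 CPM in Sham (SD, n = 5) to 19.2 ± 4.13 CPM in Px (SD, n = 10, log2 fold change -1.21 ± 0.13, edgeR adjusted p = 7.40e-07).

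Of 16 tested genes on a list of inducers and regulators of chemokine transcription, 12 were higher and 1 lower. The 12 include Nfkbia (1.25 ± 0.26) and Tnfaip3 (1.63 ± 0.39), which restrain NF-kappaB and are no inducers. Irf8, a transcription factor of monocytes and dendritic cells, rose by 3.34 ± 0.33 (edgeR adjusted p = 3.38e-07), Irf7 by 1.91 ± 0.28 (edgeR adjusted p = 1.96e-05) and Relb, an NF-kappaB subunit, by 1.53 ± 0.23 (edgeR adjusted p = 2.28e-05). The lower gene was Il1r1, the interleukin-1 receptor, at -0.56 ± 0.12 (edgeR adjusted p = 4.09e-04). Il1b, on the same list, rose from a mean of 0.21 ± 0.17 CPM in Sham to 6.21 ± 8.50 CPM in Px (SD). Its change was 4.88 ± 0.92 (edgeR adjusted p = 1.92e-04), the largest of the 16 tested genes. Tnf, Ifng, Il6 and Il1a were too low to be tested for Px against Sham. Il1a and Il6 were tested between higher- and lower-glucose Px and not called (-1.67 and -0.97, edgeR adjusted p = 0.444 and 0.623).

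Markers of immune cells rose together with the chemokine genes. The tested markers were higher in 15 of 15 for macrophage and myeloid cells (Itgam and Mpeg1 are not measured here), 10 of 10 for T and NK lymphocytes, 5 of 5 for dendritic cells, 4 of 4 for neutrophils and 1 of 1 (Jchain) for B lymphocytes and plasma cells. Measured markers numbered 13 for T and NK, 6 for dendritic cells, 10 for neutrophils and 6 for B and plasma cells. Those not tested were too low for the filter. Of the untested neutrophil and B and plasma cell markers, Ngp (0.0805 CPM in Sham, 0.0797 in Px) and Pax5 (0.0593 and 0.0316) had lower Px means. The others had higher ones, apart from Fpr1. Fpr1, a defining neutrophil gene, was at 0 in every library. T and NK markers summed to 8.37 to 15.2 CPM in Sham, 55.4 to 229 in lower-glucose Px and 62.4 to 77.6 in higher-glucose Px, and neutrophil markers to 0.978 to 1.47, 6.82 to 40.6 and 6.64 to 11 CPM.

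Non-immune markers moved as well, with 12 of 12 fibroblast, stellate cell and matrix markers, 16 of 17 acinar, 7 of 8 duct and 8 of 10 endothelial markers higher, and 6 of 10 islet endocrine markers lower. With the acinar score as a covariate, 31 of the 37 chemokine genes were still higher in Px, against 21% of all genes. When the macrophage score was the covariate, 0 of 37 and 0 of all 15199 genes were called, and the median of the chemokine genes was 0.05. Neither the macrophage nor the acinar marker sums overlap between Sham and Px, so that either covariate and the operation cannot be told apart in this design.

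The authors' deposited table of their own Px against Sham comparison lists 37 of the 50 genes, of which 31 were higher at an adjusted p under 0.05, 0 lower and 6 did not pass. In the authors' deposited table Ccl2 has a log2 fold change of 4.86 and Cxcl12 of 1.56. The 6 were Ccl19, Ccl27 and Cxcr5, and also Ccl22 (6.15, adjusted p = 0.141), Ccl9 (6, adjusted p = 0.0533) and Cxcl10 (0.85, adjusted p = 0.154) in the authors' deposited table with limma.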

How the data were processed

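Raw read counts per gene for 15 islet libraries were deposited by the authors as 1 table that has the columns of featureCounts output per the file headers, with gene positions and exon length (other: bases). FastQC, Subread, featureCounts and limma are named without versions in the submitters' processing notes; the build, the annotation and the strand setting were not given in the sources used here. Per the labels, the protocols name a miRNeasy extraction and a directional library kit. The authors' deposited comparison table holds log2 fold changes and average log2 expression, a fold-change ratio, p-values and adjusted p-values, per the file headers; it was used only where named.

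The filter was filterByExpr with at least 10 counts (15 in total), the scaling TMM, and the test glmQLFTest of edgeR 4.0.16 (two-sided, R 4.3.3), adjusted over all tested genes (Benjamini-Hochberg, 0.05). The 10 Px and 5 Sham libraries were fitted as 2 groups for the main comparison, and as 3 groups for those that part the Px rats, with the glucose boundary at 300 set from the labels. Alternatives were other scalings and filters, DESeq2 1.42.0, limma 3.58.1 voom, acinar and macrophage scores (mean log2 CPM, prior count 2) as covariates, and leaving out each library. The fits were tested on simulated counts. Depth was 12.2 to 33.4 M counts per library; 95% intervals of count ratios are exact binomial, and they and the floor of 3 counts cover counting error only.

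The members, lists and groups were chosen with earlier results of these data known. Values are given for a fixed panel of 18 genes where measured, the genes with the smallest p (up to 8 ligands and 6 receptors), those that fell or did not pass, those called between Px groups or in the slope, and up to 3 genes of each other list; Ccl3, Ccl9, Ccl12, Ccl17, Ccl22, Ccl24, Cxcl6, Cxcl9, Cxcl11, Cxcl13, Cxcr3, Cxcr6, Ccr4, Ccr6, Adam10, Il1r1 and the genes named for their rank over Px libraries were added to account for every member or named after their values were seen. Il1b, Nfkbia and Tnfaip3 were also named after their values were seen. Protein features were planned and not done, since no protein sequences were at hand. Of the tested members, 1 is included in the fits and counts and is otherwise not reported here.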

Additional observations from a re-analysis of the deposited data

Results flagged for a closer look

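Of 72 groups (36 genes in the 5 Sham and in the 7 lower-glucose Px libraries), 26 had a highest library beyond Dixon's 95% critical value. Groups at 0 in every library, such as Ccl17 in Sham, could not be tested. Chance flags about 1 in 20 groups of normally spread values, which levels near 0 are not. For Ccl12, Ccl21 and Ccr4 in Sham, 1 count in all made the flag certain. The 26 flags are not independent, since 16 of the 26 fall on the same library, lower-glucose Px replicate 8.

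In replicate 8 the values were 22 CPM for Ccl17 (next library 2.08), 44.4 for Ccl2 (21.9), 14.1 for Ccl3 (6.54), 9.04 for Ccl5 (3.69), 23.1 for Ccl6 (15.9) and 49.9 for Ccl7 (23.8). The chemokine ligands Cxcl9, Cxcl13 and Cxcl16 stood at 16.2 CPM (3.82), 8.28 CPM (2.72) and 129 CPM (64.8). The receptors stood at 6.80 CPM for Ccr4 (2.08), 3.55 for Ccr6 (0.794), 3.97 for Ccr7 (1.01), 8.04 for Cxcr2 (3.15), 7.73 for Cxcr3 (1.91), 54.1 for Cxcr4 (24.2) and 17.2 for Cxcr6 (3.20). The macrophage, T and NK, dendritic cell and neutrophil marker sums were also highest in this library, and their part in these values was not tested.

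Lower-glucose Px replicate 11 stood out for Cxcl10 at 75.2 CPM (next 17.2), Ccl24 at 21.9 (7.83) and Ccl12 at 12.5 (5.15). In Sham the values far from the rest were all low: Ccl11 at 0.458 CPM and Cxcl2 at 0.172 in replicate 27, Ccl12 and Ccr4 each at 0.0444 in replicate 26, Ccl21 at 0.0437 in replicate 25, and Ccl3 and Cxcl13 each at 0.354 in replicate 24.

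Ccl11 also differed between higher- and lower-glucose Px by 2.23 on the log2 scale (edgeR adjusted p = 0.00306), higher in all 3 higher-glucose libraries than in any of the 7 lower-glucose ones.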

How the results depend on the processing

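Leaving aside covariates, 29 of the 37 tested genes kept direction and call for Px against Sham in every alternative that could test them. Over scalings, filters and tools, the count of higher genes ran from 29 of 31 tested (mean of at least 1 CPM) to 39 of 49 (no filter). Of all genes 34.4% and 27.9% were called higher in these settings. That share ran from 17.5% (library totals) to 60.4% (endocrine scaling). With the macrophage score 0 of 37 were called, and 0 of all 15199 genes. With that score the sign turned for Ccl17 (-4.60), Ccl19 (-2.002), Ccl3 (-2.51), Ccl9 (-1.18), Ccr1 (-1.66), Ccr4 (-2.61), Ccr6 (-2.41), Ccr7 (-3.79), Cxcl13 (-5.07), Cxcl14 (-0.16), Cxcl16 (-1.43), Cxcl9 (-2.65), Cxcr2 (-4.35), Cxcr3 (-3.47), Cxcr4 (-1.75) and Cxcr6 (-4.07), none of them called; the cause was not tested. Library totals turned Ccl19 (-0.027), Ccl27 (-0.43) and, in higher-glucose Px, Cxcl10 (-0.32), left 18 genes without overlap (8.15% of all genes), called 1 gene lower in higher-glucose Px (Cxcr5, against 57.9% of all genes) and 0 between the Px groups. Cxcr5 for Px against Sham was 0.62 with endocrine scaling, 0.020 at a mean of at least 1 CPM, 0.0066 with limma voom, 0.27 with the acinar score and -0.11 to 0.054 without single libraries. Cxcl10 lost its call in 12 of 24 alternatives. Ccl11 (2.76, edgeR adjusted p = 0.191) and Ccl24 (5.12, edgeR adjusted p = 0.0751) lost theirs with the acinar score. DESeq2 called 1 gene lower between the Px groups (Cxcr4) and 1 rising with glucose (Cxcl10). Motif shares were the same in the 250 bases before the start alone. No paired analysis was possible because the groups share no replicate numbers. Low Sham depth limits folds of genes with few Sham counts.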
